A study of Mus musculus with 6 samples.

Results

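The transcripts of 10 mouse genes for amino acid transporters of the plasma membrane were compared between DKO and SKO livers: Slc3a2, Slc7a11, Slc7a5, Slc1a4, Slc7a1, Slc7a2, Slc38a2, Slc38a3, Slc38a4 and Slc43a1. They were chosen by name for their function, with earlier results of these data known. All 10 were found by symbol among the 54232 genes counted. RNA was sequenced from liver of male C57BL/6 mice on chow, between 8 and 10 weeks old, with 3 libraries in each group. DKO mice lacked FXR (Fxr-/-), the nuclear bile acid receptor, together with XBP1 in the liver (Xbp1LKO). SKO mice were Fxr-/- as well and carried Xbp1fl/fl alleles, so loss of FXR was common to both groups. By genotype, the FXR-null livers compared below differ in hepatic XBP1, which activates genes of the unfolded protein response. The labels give no batch, so an effect of batch could not be told apart from that of genotype. The sources used here do not give the promoter that drove deletion of Xbp1. All 3 DKO titles and 1 SKO title hold a pair of numbers of unstated meaning, so some libraries may be pools of animals. Nothing in the labels assigns libraries to separate animals, and the p-values then describe the spread between libraries, which may be partly technical.

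Amino acids cross the plasma membrane through carriers that differ in what they take and in what drives them. Exchangers such as those encoded by Slc7a5 and Slc7a11 trade an amino acid inside the cell for another outside. These reach the surface only when bound to the heavy chain encoded by Slc3a2 (4F2hc, also called CD98). Sodium-coupled carriers of the SLC38 and SLC1 families accumulate neutral amino acids, and hepatocytes rely on them for uptake of glutamine and alanine from portal blood. Many cells raise transcription of several exchangers when amino acids run short or stress kinases are active, through the transcription factor ATF4, which binds C/EBP-ATF response elements.

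Promoter sequences are shown for 4 members, because the core of that element matched in the windows of some and not of others. They come from RefSeq on GRCm38.p6, the assembly of mm10, and run from 250 bases before to 50 bases after an annotated start. The table held windows for 7 of the 10 members, while Slc7a2, Slc7a5 and Slc38a3 were not matched in it. Capitals mark each match on either strand to TGATGNAA, the core of the C/EBP-ATF response element.
Slc7a11, chr3:50443564-50443863, minus strand: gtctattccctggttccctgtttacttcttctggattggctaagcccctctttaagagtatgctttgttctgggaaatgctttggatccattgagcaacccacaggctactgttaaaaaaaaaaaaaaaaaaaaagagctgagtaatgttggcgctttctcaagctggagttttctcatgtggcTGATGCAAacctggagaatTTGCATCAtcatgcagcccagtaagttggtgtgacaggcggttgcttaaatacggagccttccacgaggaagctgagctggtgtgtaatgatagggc
Slc1a4, chr11:20332664-20332963, minus strand: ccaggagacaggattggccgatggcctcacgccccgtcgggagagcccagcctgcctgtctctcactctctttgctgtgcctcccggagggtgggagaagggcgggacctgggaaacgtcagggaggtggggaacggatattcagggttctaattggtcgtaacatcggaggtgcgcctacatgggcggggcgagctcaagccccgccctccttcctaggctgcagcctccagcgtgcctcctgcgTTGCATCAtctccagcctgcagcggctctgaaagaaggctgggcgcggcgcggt
Slc3a2, chr19:8713848-8714147, minus strand: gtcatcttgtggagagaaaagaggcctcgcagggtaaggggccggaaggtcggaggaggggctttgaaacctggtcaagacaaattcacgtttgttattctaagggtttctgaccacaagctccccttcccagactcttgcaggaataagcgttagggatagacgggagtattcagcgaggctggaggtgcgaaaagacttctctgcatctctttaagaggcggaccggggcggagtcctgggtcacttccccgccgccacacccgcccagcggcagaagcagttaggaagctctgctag
Slc38a2, chr15:96699679-96699978, minus strand: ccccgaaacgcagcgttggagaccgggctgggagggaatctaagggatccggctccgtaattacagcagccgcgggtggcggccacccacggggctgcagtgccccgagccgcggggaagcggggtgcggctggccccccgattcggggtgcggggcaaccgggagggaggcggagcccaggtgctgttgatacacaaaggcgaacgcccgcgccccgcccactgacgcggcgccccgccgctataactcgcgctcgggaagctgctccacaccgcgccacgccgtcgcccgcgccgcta
The Slc7a11 window held 2 matches, which began 66 and 47 bases before the start and lay on opposite strands. Slc1a4 held 1 match, which began 4 bases before the start on the strand opposite to the gene. No TGATGNAA was found in the windows of Slc3a2, Slc7a1, Slc38a2, Slc38a4 or Slc43a1, among which Slc7a1 had more than 1 window, as had Slc38a4. The Slc3a2 window lay inside the gene as counted, whose outermost start, at 8723369 on the minus strand, was not searched. The Slc43a1 window, from 84840073 on the plus strand, likewise lay inside the gene, which starts at 84838850. The element thus matched in 2 of the 10 windows of the members, and across all 32841 windows of this length 3.97% held a match. The looser antioxidant response element core TGANNNNGC, searched on both strands, matched in 5 of the 10 windows of the members and in 41.3% of all windows, and in Slc7a11 1 of its 3 matches overlapped a TGATGNAA match. TGACGTGG, the core of an XBP1-binding unfolded protein response element, matched in 0 of the 10 windows of the members and in 0.676% of all windows. These matches describe letters in a short window and do not show that a factor binds there. Sequence outside the windows was not searched, so a window without a match does not show that the gene lacks the element.

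Total counts ran from 18382107 to 21107674 in DKO libraries and from 16966422 to 20211285 in SKO libraries. Levels are given as normalised CPM (counts scaled to library size, so that libraries can be compared), and a gene was called when its edgeR quasi-likelihood test had a Benjamini-Hochberg adjusted p under 0.05 across the 13986 genes tested. In CPM, Xbp1 was 95.7, 67.0 and 68.2 in the DKO libraries, against 225, 260.2 and 254 in the SKO libraries (log2 fold change -1.68 ± 0.14, SE), while Nr1h4, which encodes FXR, was counted at 97.3 ± 3.34 in DKO and 98.4 ± 5.93 in SKO (SD, n = 3 each). The sources used here do not say which exons the alleles lack, and counts over whole genes check the genotypes only in part. Albumin took 3.32% to 4.35% of counts in DKO and 5.05% to 6.81% in SKO.

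Of the 10 transporters, 5 rose in DKO, 1 fell and 4 were not called. Among all tested genes 20.0% were called, with 10.3% higher and 9.70% lower. The 5 that rose were the heavy chain gene Slc3a2, its partners Slc7a11 and Slc7a5, the neutral carrier gene Slc1a4 and the cationic carrier gene Slc7a1. The gene that fell was Slc43a1. The median log2 fold change of the 10 was 0.53, against 0.0059 over all tested genes. DKO and SKO libraries did not overlap for 8 members, 5 with DKO above and 3 with DKO below. Among all tested genes 39.6% did not overlap, 20.2% with DKO above and 19.4% with DKO below. Because the members were chosen with earlier results known, these comparisons describe them and are no test of the set. All 10 members passed the filter on low counts, Slc7a11 through its DKO libraries alone, so that a gene this low in SKO could enter only if it differed. Slc3a2 and Slc1a4 were called in each of 14 alternative fits. The number called higher was 3, 2 and 3 without SKO replicate 1, 2 or 3. Over all genes, those called higher fell too, from 1446 to 1142, 674 and 894 in these fits. Without DKO replicate 1 the number of members called higher was 5, with Slc38a2 called in place of Slc7a1. All genes called higher then numbered 980.

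**Figure D1:**
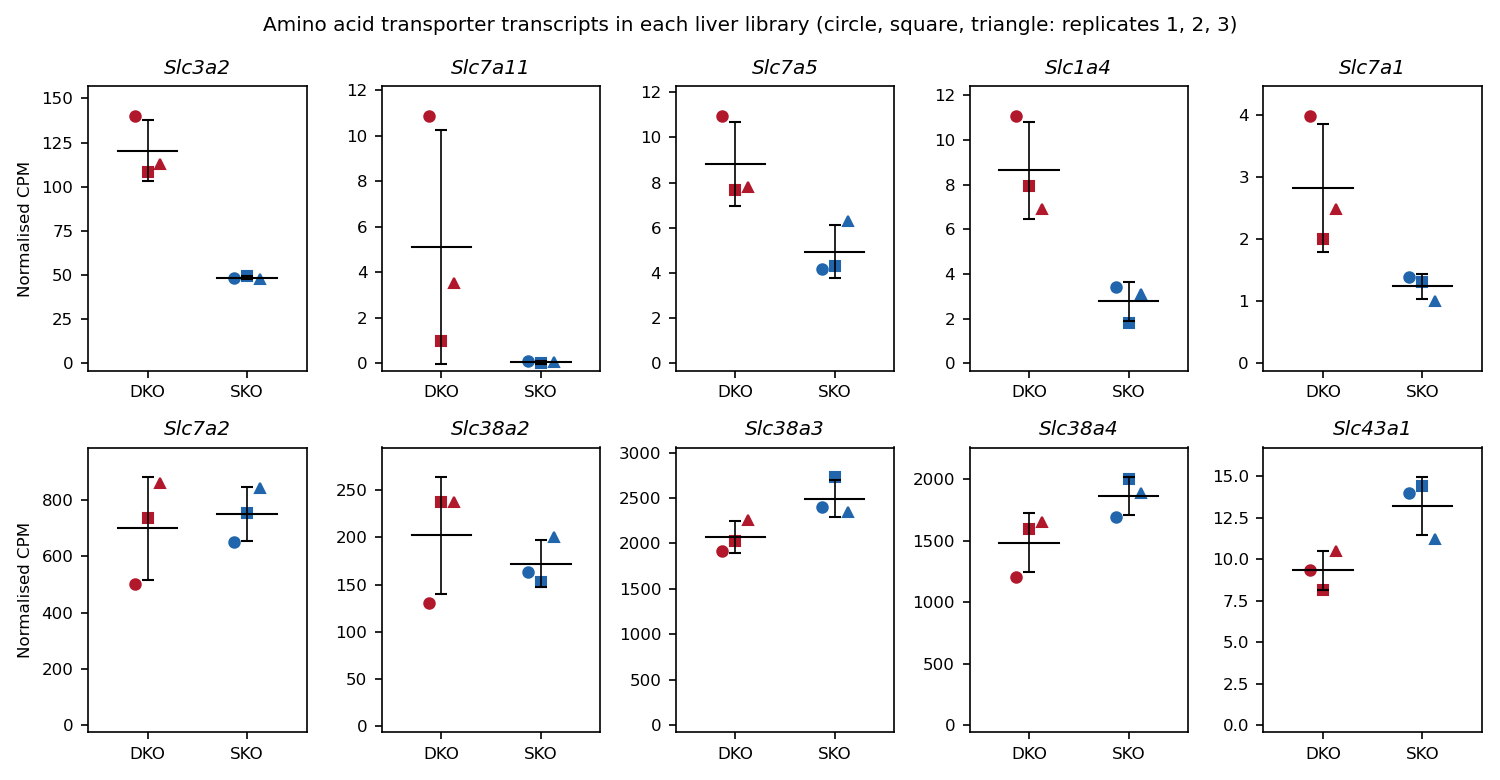
Normalised CPM (vertical axes, each from 0) of the 10 transporters in each DKO library (red, left) and SKO library (blue, right), with the mean (line) and SD (bars, n = 3). The DKO symbols lie above all SKO symbols in the 5 panels of the upper row, and in the lower row they lie below them for Slc38a3, Slc38a4 and Slc43a1.

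Transcripts of the heavy chain rose, as did those of 4 of its 6 listed light chains. Slc3a2 (ENSMUSG00000010095, chromosome 19, 8706882 to 8723369, minus strand, mm10) was 140.2, 108 and 113 CPM in the DKO libraries, against 48.5, 49.4 and 47.9 CPM in the SKO libraries. SKO libraries were nearly alike, and each DKO library was more than 2 times as high. Its log2 fold change was 1.31 ± 0.10 (SE, edgeR adjusted p = 4.06e-05), and without any single library it stayed between 1.18 and 1.38.

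Slc7a11 (ENSMUSG00000027737, chromosome 3, 49892526 to 50443614, minus strand) encodes xCT, which brings in cystine in exchange for glutamate and so supplies cysteine for glutathione. It had 259, 20 and 68 counts in DKO libraries, against 2, 0 and 1 in SKO libraries, or 10.9, 0.976 and 3.53 CPM against 0.127, 0 and 0.0563 CPM. The transcript was thus near absent in SKO libraries, where each count was at or under the limit of 3 that a count of 0 allows, and it was well above that limit in every DKO library, with DKO replicate 1 holding most of the counts. Summed over libraries, the normalised ratio of 347 DKO counts to 3 SKO counts was 94.1, with a 95% exact interval from 31.9 to 459 that covers counting error only. The DKO libraries themselves spanned 0.976 to 10.9 CPM, so the size of the rise is poorly fixed. The fitted log2 fold change of 6.33 ± 1.58 (edgeR adjusted p = 0.0485), which depends on the prior count, lost its call without any SKO library or without DKO replicate 3 (adjusted p up to 0.159) and with no filter on low counts (adjusted p = 0.133).

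Slc7a5 (ENSMUSG00000040010, chromosome 8, 121881150 to 121907694, minus strand) encodes LAT1, an exchanger of leucine and other large neutral amino acids. It stood at 11.0, 7.66 and 7.83 CPM in DKO libraries, against 4.19, 4.33 and 6.30 CPM in SKO libraries. The lowest DKO library was above the highest SKO library by a small margin. The log2 fold change was 0.84 ± 0.20 (edgeR adjusted p = 0.0186), and the call ended without SKO replicate 1 or SKO replicate 2 (adjusted p up to 0.0817). Of the 6 genes known as light chains of Slc3a2, 5 were tested, 4 rose and none fell. Beside Slc7a11 and Slc7a5 these were Slc7a7, the y+LAT1 exchanger gene, at 10.2 ± 1.23 CPM in DKO and 5.99 ± 0.765 CPM in SKO (SD, n = 3 each), and Slc7a8, the LAT2 gene, at 14.1 ± 3.42 CPM in DKO and 7.91 ± 1.35 CPM in SKO. Their log2 fold changes were 0.78 ± 0.15 (edgeR adjusted p = 0.00579) and 0.83 ± 0.20 (adjusted p = 0.0192). Slc7a6 was 0.938 ± 0.110 CPM in DKO and 0.628 ± 0.261 CPM in SKO and was not called, and Slc7a10 had 0 counts in DKO libraries and 2 in SKO libraries and was not tested. The 5 tested light chains had a median log2 fold change of 0.83. Over all tested genes 10.3% were called higher and 9.70% lower. Slc7a11 counts among the 4 that rose, but it passed the filter on low counts through its DKO libraries alone. Slc7a8 lost its call without DKO replicate 3, SKO replicate 1 or SKO replicate 2 (edgeR adjusted p up to 0.0799).

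Slc1a4 (ENSMUSG00000020142, chromosome 11, 20302180 to 20332713, minus strand) encodes ASCT1, a sodium-dependent carrier of alanine, serine, cysteine and threonine. Its level was 11.1, 7.96 and 6.90 CPM in DKO libraries, against 3.43, 1.81 and 3.10 CPM in SKO libraries. Every DKO library was at least 2 times the highest SKO library. The log2 fold change was 1.65 ± 0.26 (edgeR adjusted p = 0.00298) and ran from 1.40 to 1.82 without any single library. Its relative Slc1a5, which encodes the glutamine exchanger ASCT2 and is no member, was 15.4, 11.5 and 12.9 CPM in DKO libraries, against 5.46, 4.99 and 5.63 CPM in SKO libraries (log2 fold change 1.31 ± 0.14, edgeR adjusted p = 0.000317). Slc1a4 and Slc1a5 thus rose in all DKO libraries. Of the other SLC1 genes listed, Slc1a2, described below, rose as well. Slc1a3 was not called (log2 fold change 0.17 ± 0.41, edgeR adjusted p = 0.808), and Slc1a1 was not tested.

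Of the cationic carriers, which take up arginine, lysine and ornithine, Slc7a1 rose and Slc7a2 was not called. Slc7a1 (ENSMUSG00000041313, chromosome 5, 148327410 to 148399904, minus strand) encodes CAT1, the carrier of most tissues, which is known to be scarce in adult hepatocytes. It had 95, 41 and 48 counts in DKO libraries, against 22, 24 and 18 counts in SKO libraries, or 3.99, 2.001 and 2.49 CPM against 1.40, 1.32 and 1.01 CPM. It was low in both groups and higher in every DKO library (log2 fold change 1.20 ± 0.31, edgeR adjusted p = 0.0228). The call ended without DKO replicate 1, SKO replicate 2 or SKO replicate 3 (adjusted p up to 0.0809). Slc7a2 (ENSMUSG00000031596, chromosome 8, 40862396 to 40922308, plus strand) encodes CAT2, the main cationic carrier of liver. It was 502, 737 and 859.7 CPM in DKO libraries, against 651, 753 and 844 CPM in SKO libraries. The groups overlapped, with the lowest and the highest value both in DKO. The log2 fold change was -0.10 ± 0.19 (95% interval -0.53 to 0.33, edgeR adjusted p = 0.753), and it turned to 0.09 without DKO replicate 1 and to 0.11 with scaling by total counts. The exons of Slc7a2 share 635 bases with the antisense gene Gm26584, whose reads cannot be told apart here because the strand setting is not given. No other member overlapped another annotated gene in its exons.

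The sodium-coupled neutral carriers of the SLC38 family, which hold the most abundant transcripts of the set, were not called. Slc38a3 (ENSMUSG00000010064, chromosome 9, 107650634 to 107669530, minus strand) encodes SNAT3, which moves glutamine and histidine in either direction. It was 1918, 2022 and 2259.5 CPM in DKO libraries, against 2401, 2729 and 2349 CPM in SKO libraries. All DKO libraries were below all SKO libraries, but the log2 fold change of -0.27 ± 0.12 (95% interval -0.53 to -0.01) had an edgeR adjusted p of 0.130. DESeq2 called it lower (log2 -0.28, adjusted p = 0.0386), while with total-count scaling in edgeR it was at -0.05 (adjusted p = 0.691).

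Slc38a4 (ENSMUSG00000022464, chromosome 15, 96994820 to 97055956, minus strand) encodes SNAT4, a system A carrier found mainly in liver. It was 1209, 1592 and 1657 CPM in DKO libraries, against 1696, 2003 and 1888 CPM in SKO libraries. The groups did not overlap, and DKO replicate 1 was the lowest library. The log2 fold change was -0.33 ± 0.14 (95% interval -0.63 to -0.02, edgeR adjusted p = 0.123), and with no filter it was called lower (adjusted p = 0.0290). With total-count scaling it was at -0.11 on the log2 scale (edgeR adjusted p = 0.471). Slc38a2 (ENSMUSG00000022462, chromosome 15, 96687392 to 96699730, minus strand) encodes SNAT2, the system A carrier that many cells raise when amino acids are scarce. It was 131, 238 and 238 CPM in DKO libraries, against 163, 153 and 200.3 CPM in SKO libraries. DKO replicate 1 was the lowest of all libraries and DKO replicates 2 and 3 the highest. Its log2 fold change was 0.23 ± 0.25 (95% interval -0.37 to 0.83, edgeR adjusted p = 0.565) with all libraries, and 0.47 without DKO replicate 1, where it was called (adjusted p = 0.0205).

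Slc43a1 (ENSMUSG00000027075, chromosome 2, 84838850 to 84863594, plus strand) encodes LAT3, a facilitative carrier of branched-chain amino acids and phenylalanine that needs no heavy chain. It was 9.36, 8.15 and 10.47 CPM in DKO libraries, against 13.97, 14.4 and 11.2 CPM in SKO libraries. It was lower in every DKO library, by little between the highest DKO and the lowest SKO library. The log2 fold change was -0.50 ± 0.14 (edgeR adjusted p = 0.0288). The call ended without DKO replicate 1, DKO replicate 2, SKO replicate 1 or SKO replicate 2 (adjusted p up to 0.108) and with scaling by total counts (log2 -0.28, adjusted p = 0.139). Its relative Slc43a2, the LAT4 gene, moved the other way, at 31.5 ± 4.32 CPM in DKO and 24.5 ± 0.590 CPM in SKO (SD, n = 3 each, log2 fold change 0.36 ± 0.10, edgeR adjusted p = 0.0344). That call held without DKO replicate 2 and ended without any other library (adjusted p up to 0.117) and with limma-voom (adjusted p = 0.0513).

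To compare levels between genes, CPM was divided by the exon length of each gene in kb. On that scale Slc38a3 averaged 392 ± 33.2 CPM per kb in DKO and 472 ± 39.1 in SKO, Slc38a4 349 ± 56.8 in DKO and 437 ± 36.3 in SKO, and Slc7a2 76.6 ± 19.9 in DKO and 82.1 ± 10.6 in SKO (SD, n = 3 each). These 3 genes held 91.8% to 93.3% of the summed level of the 10 members in DKO libraries and 96.0% to 96.8% in SKO libraries. The 10 transporters thus spanned a wide range, and none of the 3 most abundant genes rose.

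Slc3a2 averaged 34.1 ± 4.91 CPM per kb in DKO and 13.8 ± 0.211 in SKO, next to Slc38a2 at 22.9 ± 6.99 in DKO and 19.5 ± 2.83 in SKO, so their order differed between the groups. Slc7a5 (2.38 ± 0.501 in DKO, 1.33 ± 0.319 in SKO), Slc1a4 (2.20 ± 0.555 in DKO, 0.708 ± 0.218 in SKO) and Slc43a1 (1.63 ± 0.203 in DKO, 2.31 ± 0.305 in SKO) came next. Slc7a11 (0.368 ± 0.369 in DKO, 0.00439 ± 0.00457 in SKO) and Slc7a1 (0.245 ± 0.0899 in DKO, 0.108 ± 0.0176 in SKO) were lowest. Neighbours in this order overlapped between libraries for Slc38a3 and Slc38a4 in both groups, and in DKO also for Slc7a5 and Slc1a4, for Slc1a4 and Slc43a1, and for Slc7a11 and Slc7a1. The other neighbours did not overlap.

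**Figure D2:**
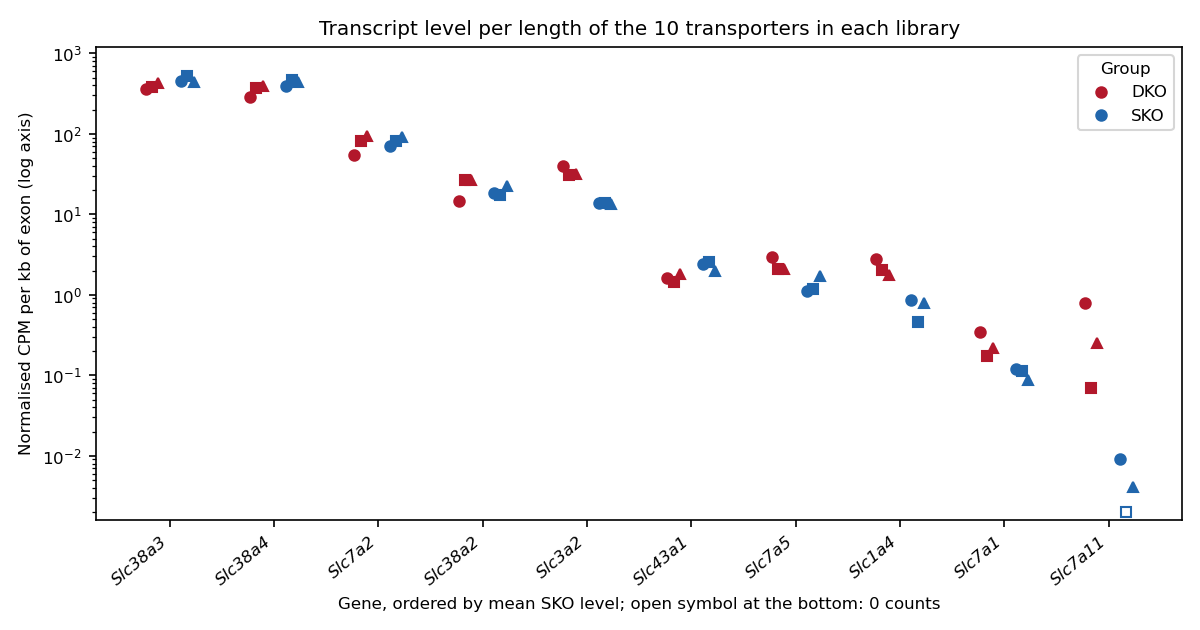
Normalised CPM per kb of exon (log axis) of each transporter in each DKO library (red, left of each pair) and SKO library (blue, right), ordered by the SKO mean, with circle, square and triangle for replicates 1, 2 and 3. Slc38a3 and Slc38a4 lie at the top in both groups, and Slc7a11, with 1 SKO library at 0 counts drawn as an open symbol, lies at the bottom in SKO.

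Libraries of the DKO group were spread in a shared way among the members. DKO replicate 1 was the highest DKO library for 5 members, which were the 5 that rose, and the lowest for 4, which were Slc7a2, Slc38a2, Slc38a3 and Slc38a4. DKO replicates 2 and 3 were between it and the SKO libraries for Slc3a2, Slc7a11, Slc7a5, Slc1a4 and Slc7a1. Without DKO replicate 1 the log2 fold changes were 1.18 for Slc3a2, 5.11 for Slc7a11, 0.64 for Slc7a5, 1.43 for Slc1a4 and 0.85 for Slc7a1, and all but that of Slc7a1 (edgeR adjusted p = 0.0588) were still called.

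**Figure D3:**
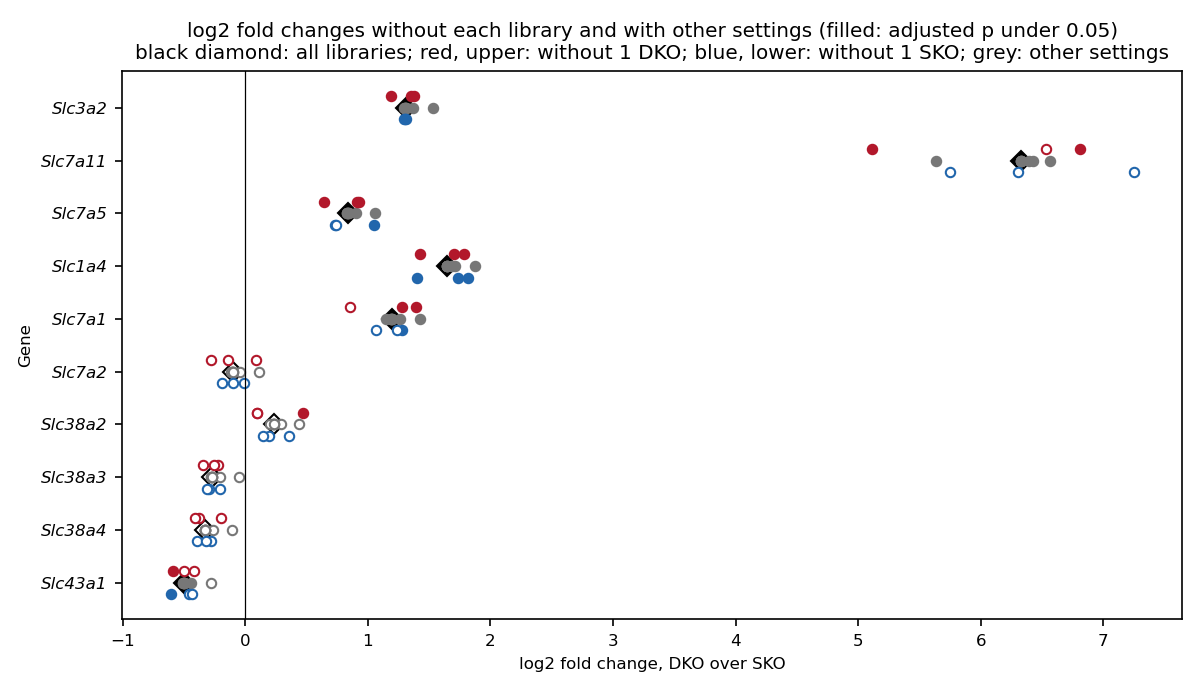
log2 fold change, DKO over SKO, of each transporter with all libraries (black diamond), without 1 DKO library (red, upper), without 1 SKO library (blue, lower) and with the other settings (grey), filled where the adjusted p was under 0.05. Slc3a2 and Slc1a4 are filled throughout, and Slc7a11 ranges from 5.11 to 7.25.

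Ratios of a pair of transporters within a library do not depend on scaling between libraries, and 5 such ratios were compared. With 3 libraries against 3, the two-sided exact permutation test can give no p below 0.1, so none of them can pass 0.05. The log2 ratio of Slc7a2 to Slc7a1 counts was 6.97, 8.51 and 8.42 in DKO libraries, against 8.83, 9.13 and 9.66 in SKO libraries. Slc7a2 counts thus exceeded Slc7a1 counts in every library, and the excess was smaller in all DKO libraries (difference -1.24, exact permutation p = 0.1, 0.125 adjusted over the 5 ratios).

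The log2 ratio of Slc7a5 to Slc3a2 was -3.67, -3.81 and -3.84 in DKO libraries, against -3.52, -3.50 and -2.92 in SKO libraries. The heavy chain was thus higher relative to LAT1 in each DKO library (difference -0.46, exact permutation p = 0.1, adjusted 0.125). The log2 ratio of Slc7a11 to Slc3a2 differed by 4.26 in the opposite sense (exact permutation p = 0.1, adjusted 0.125), a size that depends on the 0.5 counts added to each gene. Slc38a2 was higher relative to Slc38a4 in each DKO library, with a difference of 0.53 (exact permutation p = 0.1, adjusted 0.125). Relative to Slc38a3 it differed by 0.46 with overlap between the groups (exact permutation p = 0.2, adjusted 0.2).

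**Figure D4:**
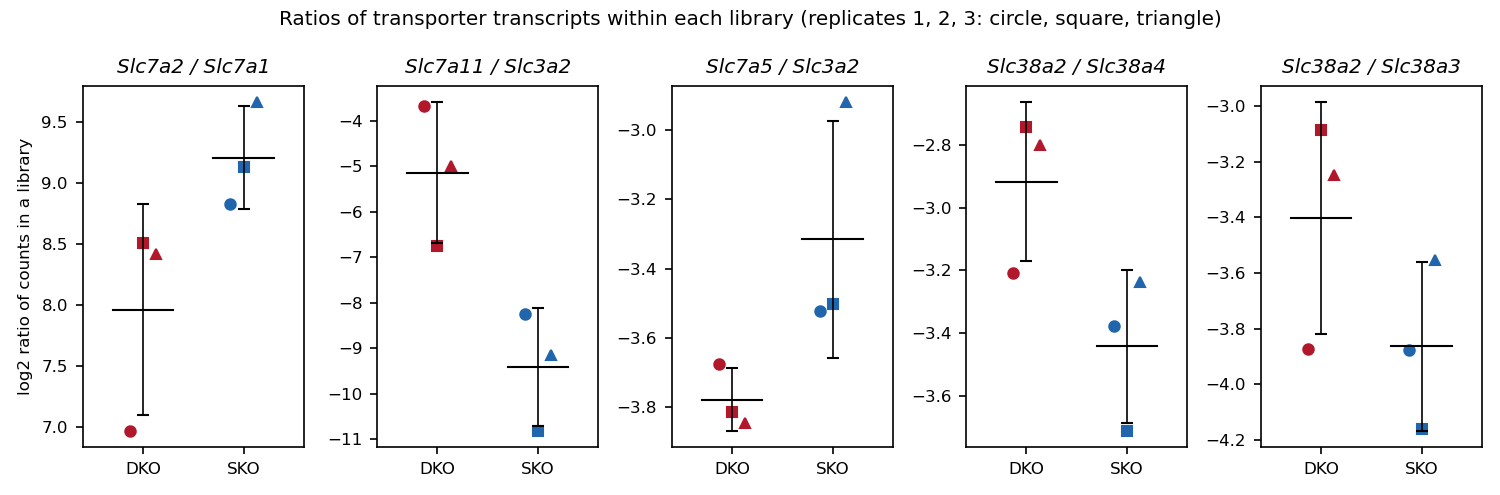
log2 ratio of the counts of 2 transporters within each DKO library (red, left) and SKO library (blue, right), with mean (line) and SD (bars, n = 3). The groups do not overlap except for Slc38a2 over Slc38a3, where DKO replicate 1 at -3.87 lies among the SKO libraries.

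Other plasma membrane amino acid transporters were called higher in several cases and lower in none. Of 32 listed, 16 were tested, 5 rose and none fell, and their median log2 fold change was 0.29. The shares over all tested genes were 10.3% higher and 9.70% lower. Slc1a2, the glutamate carrier GLT-1, was 437, 478 and 519.9 CPM in DKO libraries, against 295, 311 and 330.5 CPM in SKO libraries (log2 fold change 0.61 ± 0.10, edgeR adjusted p = 0.00234), and the remaining rises were Slc1a5, Slc7a7, Slc7a8 and Slc43a2, described above. Among those not called, Slc38a1, the SNAT1 gene, had a log2 fold change of 0.66 ± 0.23 (adjusted p = 0.0659), the aromatic amino acid carrier gene Slc16a10 0.32 ± 0.11 (adjusted p = 0.0716), and the taurine carrier gene Slc6a6 -0.0043 ± 0.10 (95% interval -0.23 to 0.22). The count of 5 rises was 3 without SKO replicate 2 and also without DKO replicate 3, 9 with no filter and 10 with total-count scaling. The share over all genes moved as well. Genes called higher numbered 674 of 14315 without SKO replicate 2 and 942 of 14300 without DKO replicate 3. With no filter they numbered 1962 of 26704, and with total-count scaling 3848 of 13986, against 1446 of 13986 as reported. The 16 that were not tested had at most 11 counts over a group, and 5 of them had none in any library.

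**Figure D5:**
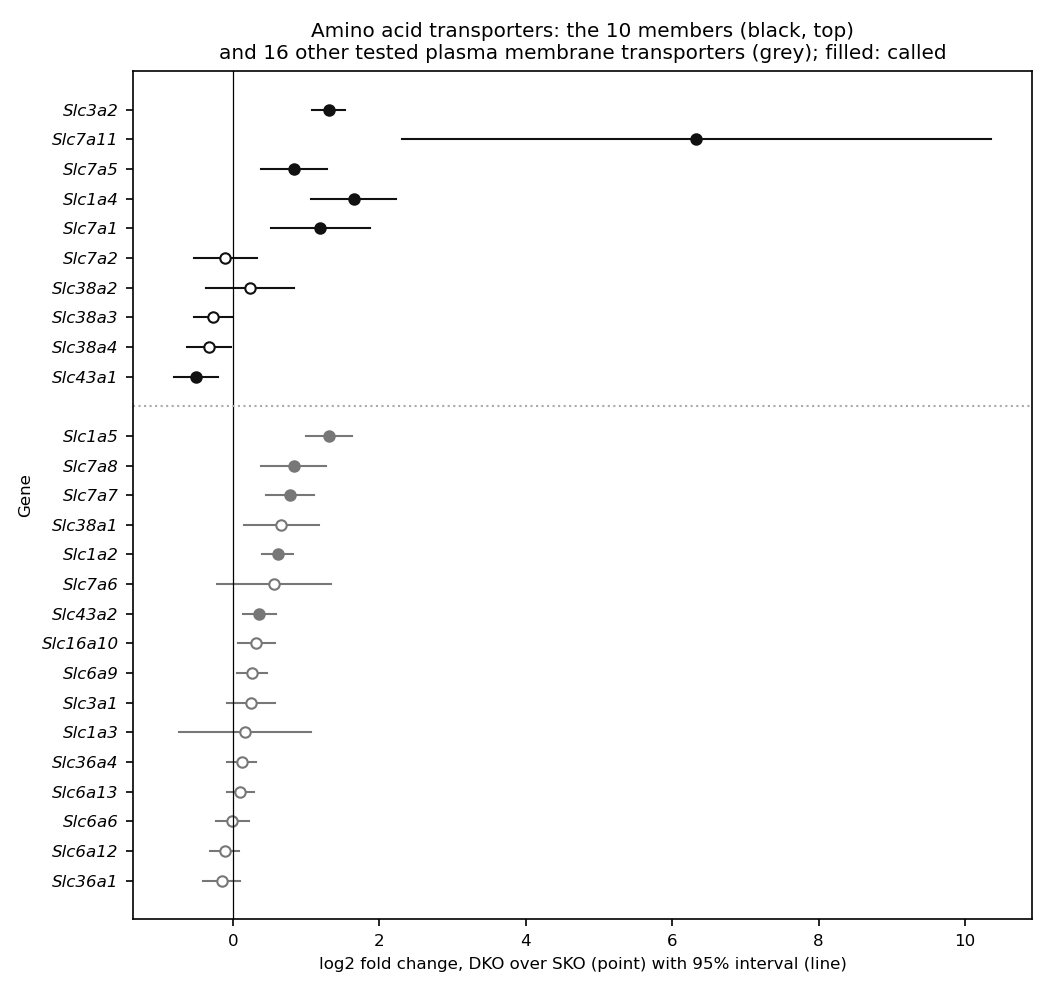
log2 fold change, DKO over SKO (points), with 95% intervals (lines) of the 10 transporters (black) and 16 other tested plasma membrane amino acid transporters (grey), filled where called. Slc43a1 is the only filled point below 0, and the interval of Slc7a11 runs from 2.31 to 10.4.

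Carriers of other membranes were called at a share near that of all tested genes, of which 10.3% were higher and 9.70% lower. Of 7 tested mitochondrial amino acid carriers 1 rose, Slc25a22, which brings glutamate into mitochondria, at 468 ± 22.6 CPM in DKO and 326 ± 32.1 CPM in SKO (SD, n = 3 each, log2 fold change 0.52 ± 0.10, edgeR adjusted p = 0.00591). Of 6 tested lysosomal carriers 1 rose, Slc15a3, a histidine and peptide carrier known from macrophages, at 14.6 ± 3.66 CPM in DKO and 8.38 ± 1.6 CPM in SKO (log2 fold change 0.81 ± 0.21, adjusted p = 0.0272). The call of Slc15a3 ended without DKO replicate 3, SKO replicate 2 or SKO replicate 3 (adjusted p up to 0.0877). None of either list fell, and their median log2 fold changes were -0.03 and 0.18.

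Enzymes that make or use the transported amino acids were called higher in 7 of 23 tested and lower in 1. The median log2 fold change of these enzymes was 0.13, and of all tested genes 10.3% were higher and 9.70% lower. The largest rises were in synthesis. Asns, asparagine synthetase, was 72.4 ± 5.47 CPM in DKO and 6.50 ± 2.71 CPM in SKO, the serine synthesis gene Psat1 was 12.4 ± 3.85 CPM in DKO and 0.885 ± 0.442 CPM in SKO, and Aldh18a1, the first enzyme of proline synthesis, was 6.41 ± 2.34 CPM in DKO and 1.70 ± 0.539 CPM in SKO (SD, n = 3 each). Their log2 fold changes were 3.46 ± 0.26, 3.78 ± 0.36 and 1.91 ± 0.31, and their edgeR adjusted p 0.000528, 0.000493 and 0.00365. Gss, the glutathione synthetase gene, rose (log2 fold change 0.64 ± 0.10, edgeR adjusted p = 0.00269), as did the proline synthesis gene Pycr1 (1.32 ± 0.33), the glutamine synthetase gene Glul (0.38 ± 0.11) and the ornithine aminotransferase gene Oat (0.51 ± 0.16). The liver glutaminase gene Gls2 fell (-0.47 ± 0.14, edgeR adjusted p = 0.0413). Pycr1, Glul, Oat and Gls2 each lost their call without at least 4 of the 6 libraries in turn (edgeR adjusted p up to 0.0927, 0.153, 0.187 and 0.127). Gls2, the enzyme gene called lower, also lost its call with upper-quartile (edgeR adjusted p = 0.0608) and total-count scaling (log2 -0.26, adjusted p = 0.117). Oat also lost its call with limma-voom (adjusted p = 0.0505) and in edgeR without robust estimation (adjusted p = 0.0584). The rate-limiting enzyme of glutathione synthesis, Gclc with Gclm, had log2 fold changes of 0.22 ± 0.12 and -0.06 ± 0.08 and was not called.

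Regulators and sensors of amino acid supply were called in both directions, 4 higher and 3 lower of 19 tested. Their median log2 fold change was 0.089, and of all tested genes 10.3% were higher and 9.70% lower. Atf4 itself was 90.4, 90.4 and 84.7 CPM in DKO libraries, against 103, 109.6 and 102 CPM in SKO libraries (log2 fold change -0.25 ± 0.07, edgeR adjusted p = 0.0322). The call of Atf4 ended without any library except SKO replicate 1 (adjusted p up to 0.128). Scaling by upper quartiles or by total counts also ended it, at -0.18 and -0.03 on the log2 scale, and counts do not measure translation. The stress factor gene Atf3 (7.39 ± 3.39 CPM in DKO, 1.04 ± 0.301 CPM in SKO), Rragd, which encodes a GTPase of lysosomal amino acid signalling (12.7 ± 5.01 CPM in DKO, 2.59 ± 0.542 CPM in SKO), the leucine sensor gene Sesn2 (19.99 ± 1.57 CPM in DKO, 11.8 ± 2.31 CPM in SKO) and Ddit3, which encodes CHOP (15.7 ± 4.58 CPM in DKO, 6.92 ± 1.56 CPM in SKO), rose, with log2 fold changes of 2.85, 2.30, 0.76 and 1.18 and edgeR adjusted p of 0.00202, 0.00378, 0.00486 and 0.0149. Bach1, a repressor of antioxidant response elements (45.1 ± 3.21 CPM in DKO, 61.4 ± 4.02 CPM in SKO), and Sesn3 (38.0 ± 1.39 CPM in DKO, 48.9 ± 4.28 CPM in SKO) fell, with log2 fold changes of -0.44 and -0.37 and edgeR adjusted p of 0.00481 and 0.0123. Nfe2l2, which encodes the antioxidant factor NRF2, was not called (log2 fold change 0.02 ± 0.09). Without SKO replicate 3 the calls of Ddit3 and Sesn3 ended, and so did that of Ddit3 without DKO replicate 1 or SKO replicate 1 and that of Sesn3 without SKO replicate 2. The highest edgeR adjusted p was 0.0605 for Ddit3 and 0.0544 for Sesn3 among these. With total-count scaling Bach1 (adjusted p = 0.0821) and Sesn3 (adjusted p = 0.207) were not called.

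Markers of several other liver cell types were higher in DKO as well, where 10.3% of all tested genes were called higher and 9.70% lower. Macrophage markers rose in 4 of 7, with a summed level of 511 to 791 CPM in DKO libraries and 395 to 487 CPM in SKO libraries. The 4 were Adgre1, Cd68, Marco and Ms4a7. Most of these sums came from Clec4f, Csf1r and Cd5l, which were not called. Their means were 201, 127 and 213 CPM in DKO and 152, 87.1 and 144 CPM in SKO. Stellate cell and fibroblast markers rose in 5 of 7 (570.1 to 832 CPM in DKO, 335 to 400.3 CPM in SKO). Cholangiocyte markers rose in 3 of 5 (121 to 199 CPM in DKO, 60.8 to 73.3 CPM in SKO). Spp1 made up most of the cholangiocyte sums, at a mean of 134 CPM in DKO and 55.6 CPM in SKO. Krt19 and Epcam also rose, while Krt7 and Sox9 were not called and overlapped between the groups. Cycling-cell markers rose in 3 of 3 tested (15.9 to 29.6 CPM in DKO, 7.23 to 9.85 CPM in SKO). No marker of endothelial cells (6 tested), lymphocytes (5), neutrophils (2) or erythroid cells (3) was called, and the neutrophil marker Ly6g was at 0 counts in DKO libraries. Hepatocyte markers fell in 4 of 6, with summed levels of 48634 to 59461 CPM in DKO and 76314 to 103937 CPM in SKO. The 4 were Alb, Apoa1, Ttr and Serpina1c. Alb made up most of these sums, at a mean of 35757.7 CPM in DKO and 66408.5 CPM in SKO. Cps1 (log2 fold change -0.24 ± 0.16) and Hnf4a (0.11 ± 0.13) were not called. DKO replicate 1, highest for the 5 transporters that rose, was also highest for the macrophage, stellate, cholangiocyte and cycling sums. It was highest too for the lymphocyte (5.54 CPM) and neutrophil (4.70 CPM) sums, of which no marker was called. For the endothelial and erythroid sums it was not the highest library. The part of these cell types in the transporter differences was not tested. In bulk liver a change in the share of a cell type and in RNA per cell cannot be told apart.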

How the data were processed

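RNA of 6 liver libraries, 3 DKO and 3 SKO, was measured by sequencing. The authors deposited raw read counts per Ensembl gene, whole numbers for 54232 genes, per the file headers. Per the submitters' processing notes, the tools were cutadapt 1.13, STAR, HTSeq 0.6.1p1 and DESeq2, with mm10. The sources used here do not give their roles, the annotation release or the strand setting, and reads of overlapping genes and close paralogs may be dropped or shared. Symbols, coordinates and exon lengths came from GENCODE M21, which matched 54165 identifiers.

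Groups follow the genotype label. Replicate numbers follow accession order and pair nothing. Counts were filtered with filterByExpr, scaled with TMM factors on library totals (1.05 to 1.13 in DKO, 0.903 to 0.951 in SKO) and tested across 13986 genes with edgeR 4.0.16 (R 4.3.3; glmQLFit and glmQLFTest, robust), DKO over SKO, with Benjamini-Hochberg adjustment. The test was tried on simulated data first. SE is the log2 fold change divided by the square root of F. Depth puts 3 counts at 0.126 to 0.156 CPM in DKO and 0.164 to 0.191 CPM in SKO. No pair of libraries in a group was alike within sampling noise (chi-square per degree of freedom 11.5 to 33.3, over genes with at least 25 counts in the pair). Alternatives were upper-quartile, DESeq2 1.42.0 and total-count scaling, other filters, DESeq2, limma-voom (limma 3.58.1), no robust estimation and each library left out.

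The members and lists were chosen with earlier results of these data known. Genes named beside the members are Xbp1, Nr1h4, Atf4 and, of each transporter, enzyme and regulator list, up to 8 called genes of at least 1 CPM with the smallest p. Markers are given as counts and sums, and those named singly, among them the 6 hepatocyte markers, were named after their values were seen. Slc1a1, Slc1a3, Slc7a6, Slc7a10, Slc38a1, Slc16a10, Slc6a6, Gclc, Gclm, Nfe2l2 and Gm26584 were named after their values were seen. The promoter motifs were chosen after the counts were analysed.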

Additional observations from a re-analysis of the deposited data

How the results depend on the processing

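Of 140 alternative log2 fold changes of the 10 transporters (14 each), 120 kept their direction and side of the threshold, 15 lost a call, 3 gained a call and 2 changed sign. Other settings gave 0 members called lower with total counts, 2 with no filter and 2 with DESeq2, and 10 and 9 other plasma membrane transporters called higher with total counts and with no filter. Total-count scaling shifted the median over all genes by 0.22 on the log2 scale. It gave 3848 genes higher and 539 lower, against 1446 and 1357 with TMM factors. Upper-quartile factors gave 1856 and 987, and no filter gave 1962 and 1647 among 26704 genes. The log2 fold change of Slc7a11 was 6.33 with no filter and lost its call, that of Slc43a1 was -0.28 with total counts and lost its call, that of Slc38a3 was -0.28 with DESeq2 and gained a call, and that of Slc38a4 was -0.33 with no filter and gained a call. Slc7a2 turned to 0.11 with total counts and to 0.091 without DKO replicate 1. Nr1h4 turned to 0.044 with upper-quartile factors and 0.20 with total counts, and ranged from -0.066 to 0.026 with each library left out. The cause of these changes was not tested, and leaving out a library also lowers the number of samples.

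With each library left out in turn, members called higher numbered 2 to 5 and lower 0 to 1, other plasma membrane transporters called higher 3 to 6, and all genes called 674 to 1569 higher and 745 to 1200 lower. The log2 fold changes ranged from 5.11 to 7.25 for Slc7a11, 0.85 to 1.39 for Slc7a1, -0.28 to 0.09 for Slc7a2, 0.64 to 1.05 for Slc7a5, 0.10 to 0.47 for Slc38a2 and -0.61 to -0.42 for Slc43a1. For the genes named beside the members, 284 of 336 values kept direction and side, 48 lost a call and 4 changed sign. All 39 alternative values of the within-library ratios kept their sign, and Slc7a11 over Slc3a2 had no value with no pseudocount, because 1 SKO library had 0 counts. Depth limits Slc7a11, with 3 counts over the SKO group, and Slc7a1, with 64. No paired analysis was possible because the labels give no replicate numbers shared by the groups.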
